A study of Mus musculus with 36 samples.

Results

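The kidney's response to 3-day fasting was compared, probe set by probe set, with its response to 2 weeks of 30%DR (30% dietary restriction). The quantity is a difference of differences: the log2 value of fasted mice minus that of their own SDS controls, less the log2 value of restricted mice minus that of theirs. All 45141 probe sets of the arrays were kept, and 17 of the 36 arrays of the series carry the comparison. Total RNA came from kidneys of male C57BL/6 mice aged 10 to 12 weeks, and each mouse had an array of its own. The fasting cohort holds 4 mice without food for 3 days and 5 mice fed the standard SDS chow ad libitum. The restriction groups, hybridised on other dates, hold 5 mice given 70% of the normal SDS intake once a day, late in the afternoon, for 2 weeks, and 3 mice fed SDS chow ad libitum, of the 4 that the treatment protocol names. No transgene is named for these mice, and none had undergone ischemia. The authors normalized the fasting cohort apart from the other arrays, so that no level was compared between cohorts here, and a shift that all arrays of a cohort share cancels in each within-cohort effect. Diet, duration, feeding schedule and cohort change together between the effects and cannot be told apart.

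Fasting withdraws food altogether, and fat then becomes the main fuel of the body. In liver and kidney, fatty acids activate the nuclear receptor PPARA, which raises the enzymes of fatty acid oxidation, while the activity of the SREBF factors, which drive cholesterol synthesis, falls. A restricted mouse still eats, takes its ration in a short meal and goes without food for the rest of the day. The hour of such a meal is a known time cue for the circadian clock of peripheral organs, the kidney included.

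The renal effects of the diets differed for 1127 probe sets, 2.5% of the 45141 tested, at a false discovery rate (FDR) under 5% and a fold change between the effects of at least 1.5, which is 0.585 on the log2 scale. The difference lay above 0 for 593 probe sets, 1.31% of those tested, and below 0 for 534, 1.18%. By itself, fasting changed 2376 probe sets, 5.26%, of which 1184 were up-regulated and 1192 down-regulated, and 2 weeks 30%DR changed 635, 1.41%, of which 308 were up-regulated and 327 down-regulated. The restriction count rested on few controls: it was 357 without SDS mouse TS56 and 795 without SDS mouse TS55, while the count of differences lay between 823 and 1258 whichever of the 17 arrays was left out.

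Most of the 1127 differences came with a fasting response. Fasting alone was called for 729 of them, restriction alone for 84 and neither diet for 252, where modest effects of opposite sign added up. In 45 probe sets the diets acted in the same direction but by unequal amounts, and fasting had the larger effect in 40 of these. The remaining 17 probe sets, of 13 genes, were called after each diet in opposite directions, 14 of them up-regulated by fasting and down-regulated by restriction. The absolute effect was larger after fasting in 952 of the 1127 and larger after restriction in 175.

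A call after a single diet did not by itself mark a difference. Of the probe sets called after fasting and not after restriction, 1357 did not reach the call for the difference, and of those called after restriction and not after fasting, 261 did not. Among the 290 probe sets called after each diet, 273 moved in the same direction. Across all 45141 probe sets the effects, which share no array, had a Pearson r of 0.40 and a Spearman rho of 0.35, and 60.2% had the same sign. Over all probe sets the median absolute log2 effect was 0.10 after fasting and 0.10 after restriction. Over the 2376 called after fasting, chosen for a large fasting effect, it was 0.79 after fasting and 0.28 after restriction, and 80.3% had the same sign. Over the 635 called after restriction, chosen for a large restriction effect, it was 0.54 after fasting and 0.73 after restriction, and 86.8% had the same sign. Probe sets are not independent replicates, and these values are descriptions.

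**Figure D1:**
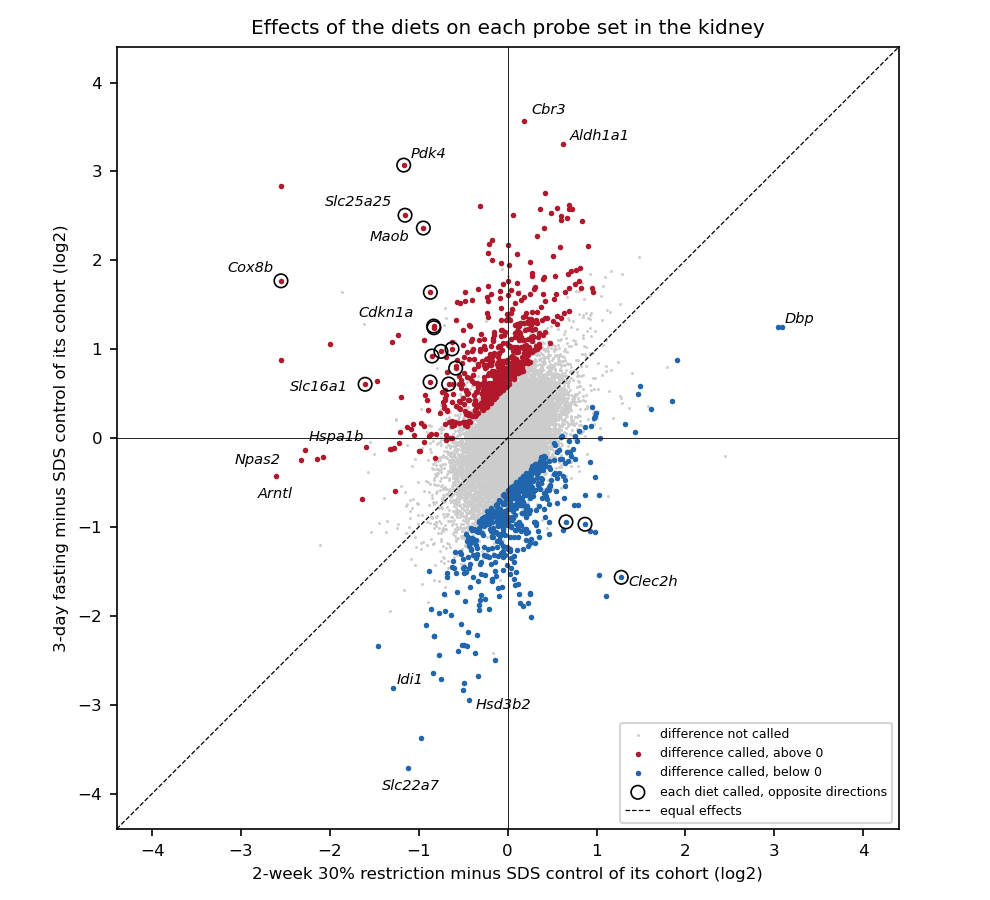
Fasting effect (vertical axis) against restriction effect (horizontal axis) of each of the 45141 probe sets, each a log2 difference from the SDS controls of its own cohort. Red and blue points are the 593 and 534 probe sets whose effects differed above and below 0, circles mark the 17 with opposite directions, and the dashed line marks equal effects. Pdk4, Slc25a25 and Maob stand in the upper left and Clec2h in the lower right, while Arntl and Dbp lie far from 0 along the restriction axis.

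Pdk4 was moved in opposite directions by the diets. This gene, which encodes the kinase that shuts pyruvate out of the mitochondrial oxidation of glucose, had log2 values of 6.54–6.77 in the SDS mice and of 9.33, 9.50, 9.83 and 10.25 in the fasted mice of the same cohort. In the restriction groups it stood at 8.08, 8.21 and 8.34 in the SDS mice and at 6.76, 6.76, 6.99, 7.06 and 7.64 in the restricted mice. Every fasted mouse lay above, and every restricted mouse below, all of its controls. The fasting effect was 3.07 ± 0.17 (SE) and the restriction effect -1.17 ± 0.19, a difference of 4.24 ± 0.25 on the log2 scale (limma, FDR = 2.37e-08). The restriction effect rested on the 3 SDS mice. Another 5 mice hybridised with the restriction groups and fed another control diet, control type I, had Pdk4 values of 6.83–7.56, a range that the restricted mice overlapped, and the restricted mean minus theirs was -0.23. With these mice joined to the SDS mice the difference was 3.65.

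Slc25a25, Slc16a1 and Slc16a6, each a carrier of metabolites, were also up-regulated by fasting and down-regulated by restriction. With the probe set of highest mean taken for each gene, opposite directions were called for 12 of 17097 genes. The 0 of 23 genes on the list of organic ion and drug transporters is therefore no contrast to these carriers. Slc25a25, a calcium-regulated carrier of ATP-Mg and phosphate in the inner mitochondrial membrane, rose from 5.55–6.02 in the SDS mice to 7.62–8.64 in the fasted mice, and fell from 5.86–6.99 to 4.81–5.37 after restriction. Its difference was 3.66 ± 0.31 (FDR = 2.09e-06), and 1.22 in the other probe set of the gene. Slc16a1, the monocarboxylate transporter that carries lactate and ketone bodies, went from 9.30–9.55 to 9.87–10.12 with fasting and from 8.52–8.91 down to 6.56–7.84 with restriction, again without overlap in either cohort. The difference was 2.21 ± 0.25 (FDR = 4.75e-05), with a restriction effect of -1.60 ± 0.19, and a second probe set of the gene gave 0.34. Slc16a6, a related transporter that exports ketone bodies, had effects of 0.97 ± 0.14 and -0.75 ± 0.16.

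Maob, the mitochondrial monoamine oxidase, differed by 3.31 ± 0.31 (FDR = 6.81e-06), with 7.52–8.15 in fasted against 4.76–5.80 in SDS mice, and 3.58–4.63 in restricted against 4.84–5.30 in SDS mice. Cdkn1a, the p21 inhibitor of the cell cycle, lay at 4.78–5.24 in the SDS mice and at 5.93–6.71 in the fasted mice, and at 4.91–5.74 and 4.19–4.68 in the SDS and restricted mice. Its difference was 2.07 ± 0.25 (FDR = 9.3e-05). Ddit3, a transcription factor of the stress response, had effects of 0.63 ± 0.13 and -0.87 ± 0.14. Asb11, Sh3tc2 and Tmem37 were also up-regulated by fasting and down-regulated by restriction, with differences of 2.09, 1.37 and 1.27.

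In the reverse direction stood Clec2h, a C-type lectin-like gene measured by 3 probe sets whose differences lay between -2.89 and -2.58. It fell from 8.75–9.51 in the SDS mice to 7.11–7.81 with fasting, and rose from 7.96–8.02 to 8.66–9.90 with restriction. The groups were apart in each cohort, and the difference was -2.85 ± 0.29 (FDR = 1.67e-05). Gm8126, a gene model of unassigned function, was the other gene of this kind, at -1.60 ± 0.19. The count of opposite directions was sensitive to single arrays. It was 7 without SDS mouse TS56 and 24 without fasted mouse K344.

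**Figure D2:**
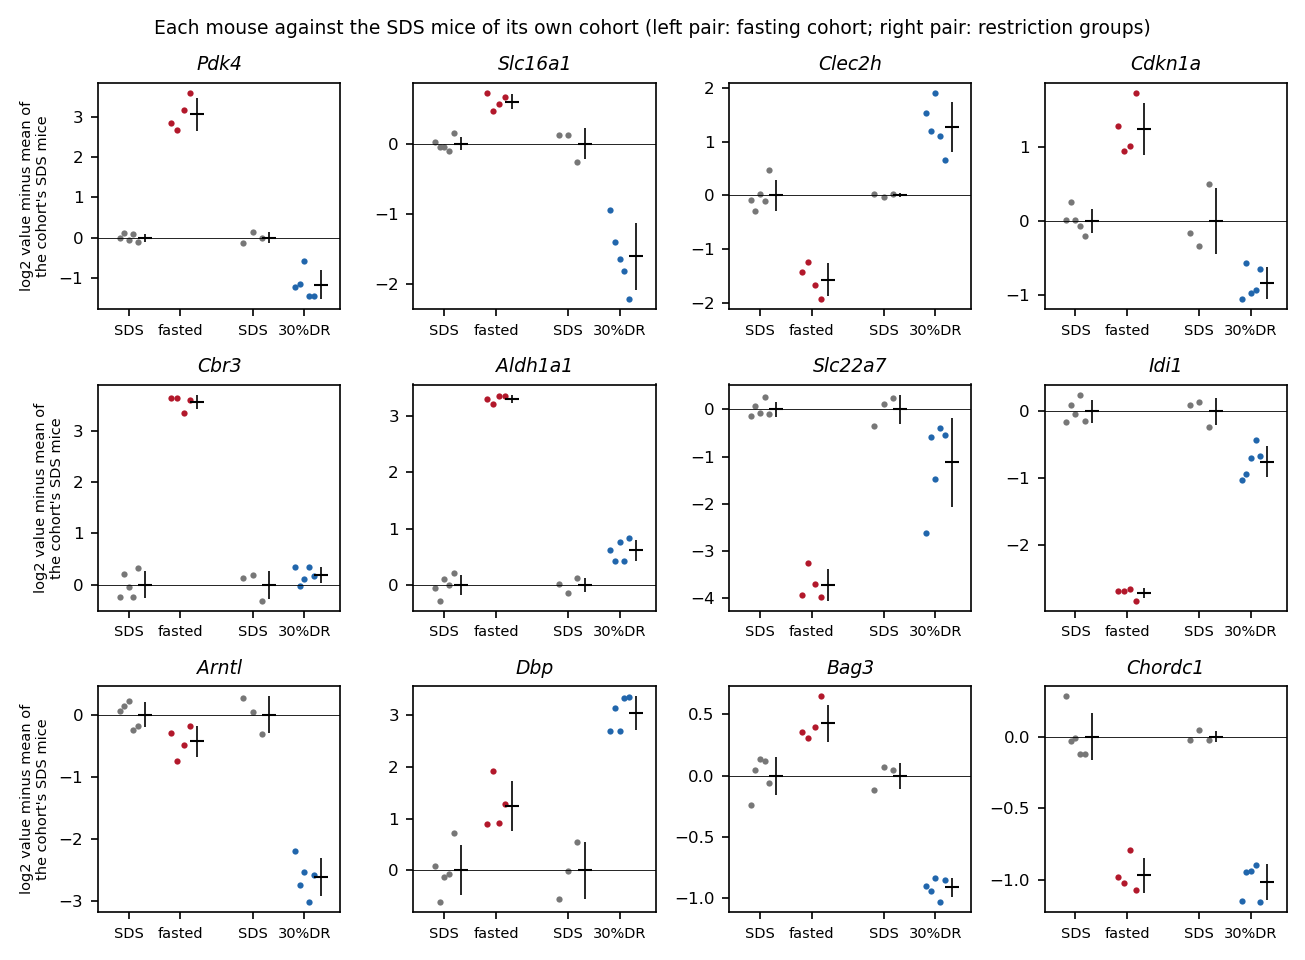
Log2 value of each mouse minus the mean of the SDS mice of its own cohort, for 12 genes with the probe set that was described or the first of the gene; points are mice, and the bars beside them are mean ± SD (fasting cohort: 5 SDS, 4 fasted; restriction groups: 3 SDS, 5 restricted). Fasted and restricted mice lie on opposite sides of their controls for Pdk4, Slc16a1, Clec2h and Cdkn1a. Fasted mice alone are far from 0 for Cbr3. For Slc22a7 fasted mice are farthest from 0, and restricted mice also lie below their controls. Restricted mice are farthest for Arntl and Dbp, and each diet lowered Chordc1 by a like amount.

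Cox8b, a subunit of cytochrome c oxidase found in heart, muscle and brown fat, differed by 4.32 ± 0.83 (FDR = 0.00549), but its values varied widely between mice. The fasted mice stood at 7.30, 6.65, 5.93 and 3.76 against 3.61–4.64 in their controls, and the restricted mice at 3.45–6.22 against 6.98–7.81. Ucp1, the uncoupling protein of brown fat (3.43 ± 0.56), and Adig, an adipogenesis gene (2.40 ± 0.47), differed in the same direction. The fasting effect of Ucp1 (0.88 ± 0.38) and the restriction effect of Adig (-1.24 ± 0.35) were not called. In the SDS mice of the fasting cohort Ucp1 lay at 3.4–3.9 and Adig at 2.9–3.4. The highest nonspecific control probe set stood at 4.35–4.98 on those arrays, so that these controls, like those of Cox8b, were read near the bottom of the scale. The highest difference of all probe sets was that of Cidea, a lipid droplet protein of brown fat, named after its values were seen: its effects of 2.84 ± 0.70 and -2.55 ± 0.76 differed by 5.39 ± 1.04 (FDR = 0.00548). The mean of the 4 measured adipocyte markers (Adipoq, Fabp4, Lep and Retn) was 6.12–6.75 in the SDS mice and 5.37–7.65 in the fasted mice, and 6.76–7.67 in the SDS mice and 6.20–6.74 in the restricted mice. The fasted mice spanned the range of their controls on both sides, the restricted mice lay just below theirs, and 0 of the 4 markers were called after either diet alone. For the difference, Fabp4 was called (1.16 ± 0.27), Adipoq gave 2.90 ± 1.14 without a call, and Lep lay near the bottom of the scale in every group. With the marker mean as a covariate, the differences were 2.51 for Cox8b, 2.45 for Ucp1 and 1.40 for Adig, each called. With the control type I mice joined to the SDS mice, Cox8b gave 2.35 (FDR = 0.296) and Ucp1 1.79 (FDR = 0.378), and neither these nor Adig (FDR = 0.132) was called. The part of fat tissue in these results was not tested. In RNA of a whole kidney, a change in the number of cells of a type and a change in RNA per cell cannot be told apart.

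Most genes of fatty acid oxidation responded to fasting more than to restriction. A single probe set was taken for each of 17097 genes, the one with the highest mean, and on that basis the difference was called for 3.37% of all genes, 1.83% above 0 and 1.54% below 0, the fasting effect for 6.38% and the restriction effect for 1.61%. These shares are the background for the gene counts below. Of 27 measured genes of fatty acid oxidation and ketogenesis, 17 differed with fasting above restriction, 0 with fasting below it, and all 27 estimates were above 0, with a median of 0.75 against 0.00 over all genes. After fasting 16 of the 27 were up-regulated and 0 down-regulated. After restriction 0 were up-regulated, 1 was down-regulated (Pdk4), and the median effect was 0.04.

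The list spans uptake into mitochondria, the oxidation spiral, peroxisomes and the microsomal omega-oxidation. Cyp4a10, a fatty acid omega-hydroxylase under PPARA control, stood at 10.93–11.23 in the SDS mice and at 12.67, 12.76, 12.94 and 13.02 in the fasted mice, and at 11.09–11.27 and 11.34–11.78 in the SDS and restricted mice. The effects of 1.79 ± 0.10 and 0.40 ± 0.11 differed by 1.39 ± 0.14 (FDR = 1.99e-05). The restricted mice also lay above all of their controls, though below the fold change minimum. Acot1 and Acot2, thioesterases of fatty acyl-CoA with near-identical sequences that the probes may not tell apart, differed by 1.76 ± 0.17 and 2.12 ± 0.23. Slc25a20, which carries acylcarnitines into mitochondria, went from 9.52–9.86 to 10.71–10.92 with fasting and lay at 9.90–9.95 and 9.70–10.27 in the restriction groups, a difference of 1.07 ± 0.17 (FDR = 0.00106).

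Further members with called differences were the carnitine palmitoyltransferases Cpt2 (0.70 ± 0.18) and Cpt1b (0.61 ± 0.16), the enoyl-CoA isomerases Eci1 (1.05 ± 0.14) and Eci2 (0.84 ± 0.12), the lipid droplet protein Plin2 (1.15 ± 0.16), Angptl4, a secreted inhibitor of lipoprotein lipase (1.64 ± 0.29), and the peroxisomal Pex11a (0.75 ± 0.12). Acaa2, of the last step of the spiral, rose by 1.23 ± 0.12 with fasting against a restriction effect of 0.23 ± 0.13, and the pantetheinase Vnn1 by 1.33 ± 0.08 against 0.32 ± 0.08. The calls did not extend along the whole pathway. Cpt1a, the liver form of the gatekeeping carnitine palmitoyltransferase, had effects of 0.49 ± 0.09 and 0.23 ± 0.10, and the 95% interval of their difference ran from -0.03 to 0.55. The medium-chain dehydrogenase Acadm gave 0.22 ± 0.10 and Hadh 0.06 ± 0.09. For Angptl4, the second probe set differed by 0.26.

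Cholesterol synthesis lay mainly on the negative side of the difference. Of 19 measured genes of the pathway, 6 had a difference below 0 and 1 above it, the median was -0.64, and 15 estimates were below 0. Fasting down-regulated 8 and up-regulated 1, and restriction down-regulated 1 (Idi1) and up-regulated 1. Idi1, which isomerises isopentenyl diphosphate, showed the pattern at its strongest. Its log2 values were 10.33–10.73 in the SDS and 7.66–7.83 in the fasted mice, and 9.29–9.66 in the SDS and 8.49–9.09 in the restricted mice, so that each diet separated all mice from their controls. The effects of -2.71 ± 0.12 and -0.75 ± 0.13 differed by -1.96 ± 0.17 (FDR = 2.86e-06), and by -1.81 in the other probe set.

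Cyp51, the lanosterol demethylase, differed by -1.57 ± 0.18 in the probe set with the lowest p and by -1.04 ± 0.15 in the brightest one. Dhcr7, which makes cholesterol in the last step, had effects of -1.04 ± 0.13 and 0.10 ± 0.14 (difference -1.13 ± 0.20, FDR = 0.00238), with 5.13–5.60 in the fasted mice against 6.13–6.65 in their controls. Sqle (-0.66 ± 0.13), Nsdhl (-0.65 ± 0.14) and the sterol carrier Stard4 (-0.67 ± 0.17) were called as well. Ebp, the sterol isomerase, went the other way, at 0.70 ± 0.14, with 9.93–10.30 in the fasted and 9.31–9.49 in the SDS mice. Fdps and Msmo1 fell after fasting by 1.41 and 1.60 on the log2 scale. Their restriction effects of -0.49 ± 0.21 and -0.78 ± 0.23 were not called, and neither was the difference (-0.92 ± 0.28 and -0.83 ± 0.31). Hmgcs1, an early enzyme of the pathway, was called in no contrast.

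**Figure D3:**
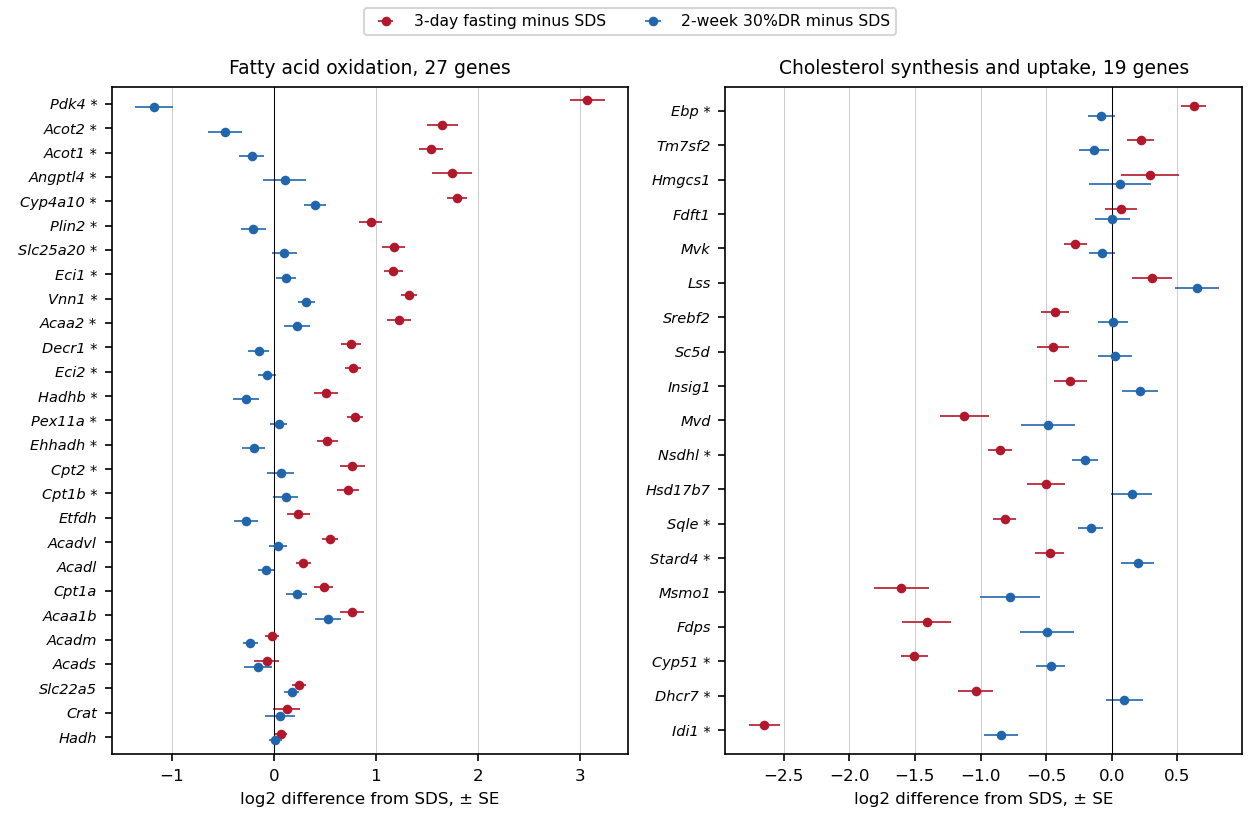
Effect of fasting (red) and of restriction (blue) on each measured gene of fatty acid oxidation (27 genes) and of cholesterol synthesis and uptake (19 genes), as log2 difference from the SDS controls of the cohort with its SE; an asterisk marks the 17 and 7 genes whose effects differed. Genes are ordered by the difference. The red points of the left panel run from near 0 to 3.07 for Pdk4, and the blue points of that panel lie between -0.48 and 0.53 except that of Pdk4.

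Of the 24 gene lists, the circadian clock had the largest share of members called after restriction. In the clock, CLOCK, or its relative NPAS2, pairs with ARNTL (BMAL1) to drive the Per and Cry repressors and the output factors Dbp, Tef and Hlf. Of 18 measured genes, restriction up-regulated 10 and down-regulated 4, and fasting up-regulated 3 and down-regulated 1. The effects differed for 6 genes, 2 above 0 (Arntl and Npas2) and 4 below 0 (Dbp, Per3, Nr1d2 and Bhlhe40).

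On the activating side, Arntl stood at 6.68–7.14 in the SDS and 6.17–6.73 in the fasted mice, and at 5.77, 6.13 and 6.36 in the SDS against 3.07, 3.35, 3.50, 3.56 and 3.90 in the restricted mice. The fasted mice overlapped their controls and the restricted mice lay far below theirs. The effects of -0.43 ± 0.16 and -2.61 ± 0.17 differed by 2.18 ± 0.23 (FDR = 2.18e-05), although a second probe set of the gene gave 0.50. Npas2 fell by 2.32 ± 0.21 with restriction and had an effect of -0.25 ± 0.19 with fasting (difference 2.08 ± 0.28, FDR = 0.000333), whereas its second probe set showed no difference (0.00). In the restricted mice, Arntl and Npas2 (2.76–3.49) lay under the highest nonspecific control probe set of their arrays (4.20–4.66). The size of these falls was thus read near the bottom of the scale. Nfil3, a repressor of the output arm, fell by 1.57 ± 0.24 with restriction. Its fasting effect was -0.38 ± 0.22, and the difference of 1.19 ± 0.33 missed the call (FDR = 0.0576).

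On the output side, Dbp, a PAR bZIP transcription factor, had values of 4.81–6.15 in the SDS and 6.32–7.35 in the fasted mice, and of 5.24–6.34 in the SDS and 8.49–9.13 in the restricted mice. It rose with each diet, by 1.25 ± 0.26 and by 3.04 ± 0.28, and the difference was -1.79 ± 0.39 (FDR = 0.0126). Per3 rose from 5.76–6.08 to 7.22–8.14 with restriction, while the fasted mice (6.02–6.49) overlapped their controls (5.63–6.25). Its difference was -1.44 ± 0.25, and the 5 probe sets of the gene ranged from -1.44 to 0.05. Nr1d2, a repressor of Arntl, gave -0.75 ± 0.15. Ciart, a repressor within the loop, rose after restriction by 1.79 ± 0.25 and after fasting by 0.80 ± 0.23, and the difference of -0.99 ± 0.34 was not called.

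Per1 and Bhlhe40 broke the pattern. Per1, which glucocorticoids also induce, rose by 1.85 ± 0.20 with fasting and by 1.28 ± 0.21 with restriction, and the 95% interval of the difference, -0.05 to 1.18, includes 0. Bhlhe40 fell by 1.04 ± 0.20 with fasting, from 8.65–8.96 down to 7.48–8.05, and had a restriction effect of 0.15 ± 0.22 (difference -1.20 ± 0.30, FDR = 0.0306). Its SDS mice of the restriction groups spread over 8.09–9.68. No source used here gives the hour at which the kidneys were taken, and its part in the clock values was not tested. With the control type I mice joined to the SDS mice, 3 clock genes lay above 0 and 4 below.

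**Figure D4:**
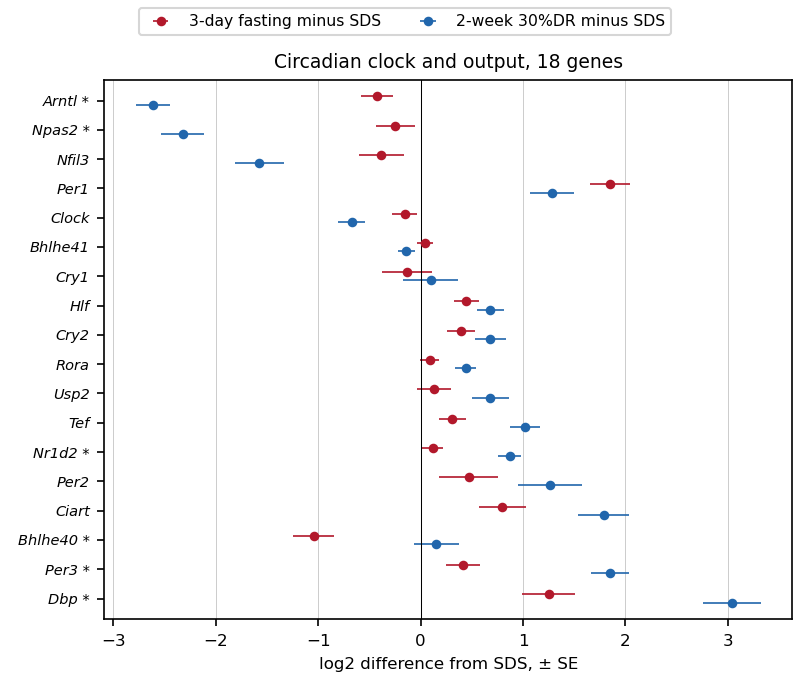
Effect of fasting (red) and of restriction (blue) on the 18 measured clock and output genes, as log2 difference from the SDS controls of the cohort with its SE, ordered by the difference; an asterisk marks the 6 genes whose effects differed. The blue points run from -2.61 (Arntl) to 3.04 (Dbp), and the red points from -1.04 (Bhlhe40) to 1.85 (Per1).

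Promoters of the clock genes were read from RefSeq (GRCm38.p6) as the 250 bases before each annotated start, for 16 of the 18 genes. The E-box CACGTG, bound by CLOCK and ARNTL, was present in 5 of them (Per1, Cry1, Ciart, Bhlhe41 and Tef) and in 6.86% of the 27025 genes with a promoter. The D-box TTANGTAA, bound by DBP, TEF, HLF and NFIL3, was present in 1, Per3, and in 2.44% of all genes. The core TAGGTCA of ROR and NR1D sites was present in 1, Nfil3, and in 2.55%. Each motif was searched on both strands, and none of the 3 overlaps another in these promoters. Shown are Ciart (chr3:95882229-95882478, minus strand), the clock promoter with the most E-boxes, and Per3 (chr4:151044666-151044915, minus strand), with its pair of D-boxes, 5′ to 3′ along the gene with the motifs in capitals.
Ciart: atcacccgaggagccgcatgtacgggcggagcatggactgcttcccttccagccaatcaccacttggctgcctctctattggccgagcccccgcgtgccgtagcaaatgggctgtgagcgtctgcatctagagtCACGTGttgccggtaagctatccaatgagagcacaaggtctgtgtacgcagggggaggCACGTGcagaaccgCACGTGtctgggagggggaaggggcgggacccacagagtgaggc
Per3: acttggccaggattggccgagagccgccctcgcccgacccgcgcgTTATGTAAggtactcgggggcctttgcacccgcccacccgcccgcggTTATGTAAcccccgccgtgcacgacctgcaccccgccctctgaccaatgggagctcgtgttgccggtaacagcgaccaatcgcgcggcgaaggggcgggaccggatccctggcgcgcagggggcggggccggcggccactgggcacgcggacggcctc
Counted from the start of the gene, the E-boxes of Ciart begin at positions -116, -58 and -44 and the D-boxes of Per3 at -205 and -158. A match in letters is a description of the sequence and not a binding site.

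Cytosolic chaperones fell more widely after restriction than after fasting by count, and 5 of them differed between the diets. Of 18 measured heat shock chaperones and cofactors, restriction down-regulated 12 and fasting 7, and none was up-regulated. The difference was called above 0 for 5 (Hspa1b, Bag3, Hspb1, Dnajb4 and Dnajb1) and below 0 for 0, and the median was 0.33. It ranged from 0.10 to 1.20 over the 4 probe sets of Hspb1 and from 0.23 to 1.21 over the 3 of Dnajb4. Bag3, a partner of HSP70 in selective autophagy, lay at 6.46–6.84 in the SDS and 7.01–7.35 in the fasted mice, and at 6.84–7.03 in the SDS and 5.93–6.13 in the restricted mice. The fasted mice were all above and the restricted mice all below their controls. The fasting effect of 0.43 ± 0.09 was under the fold change minimum, the restriction effect was -0.91 ± 0.10, and the difference was 1.34 ± 0.13 (FDR = 9.9e-06). Dnajb4, a J-protein that hands clients to HSP70, showed the same pattern, at 0.36 ± 0.08 and -0.72 ± 0.09 (difference 1.08 ± 0.12, FDR = 5.05e-05).

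The inducible Hspa1b, whose probes may also read its near-identical neighbour Hspa1a, stood at 8.49–9.09 in the SDS and 8.11–9.27 in the fasted mice, and at 10.83–11.07 in the SDS and 9.04–9.72 in the restricted mice. The fasted mice overlapped their controls and the restricted mice lay below theirs. The 95% interval of the difference was 0.92–2.07 in this probe set (FDR = 0.00388), and the difference was 1.91 ± 0.32 in the probe set with the lowest p. The SDS mice of the restriction groups were also high beside the control type I mice, which lay at 8.76–10.04, so that the restricted mice were within the range of that control diet. With both kinds of control joined, 2 genes of the list were called in place of 5. Bag3 (1.13, FDR = 2.67e-05) and Dnajb4 (0.79, FDR = 0.0398) were called in that fit, and Hspa1b (0.78, FDR = 0.636) and Hspb1 (0.85, FDR = 0.233) were not.

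The heat shock factor HSF1 binds inverted repeats of GAA, in which GAA alternates with its reverse complement TTC. Single pairs were searched here. In promoters of 15 of the 18 genes the form GAANNTTC was present in 5 (Hspa1b, Dnaja1, Dnaja4, Hspb1 and Hspe1; 7.73% of all genes) and the form TTCNNGAA in 3 (Hsph1, Dnajb4 and Hspe1; 8.11%). The forms can overlap where the repeat runs on. In the window of Hspa1b the motif begins at -104, and in that of Hspb1 at -117 and -97. Hspa1b (chr17:34959239-34959488, minus strand) and Hspb1 (chr5:135887669-135887918, plus strand) are shown, GRCm38.p6, as the chaperone promoters holding this motif whose genes differed between the diets, with GAANNTTC in capitals.
Hspa1b: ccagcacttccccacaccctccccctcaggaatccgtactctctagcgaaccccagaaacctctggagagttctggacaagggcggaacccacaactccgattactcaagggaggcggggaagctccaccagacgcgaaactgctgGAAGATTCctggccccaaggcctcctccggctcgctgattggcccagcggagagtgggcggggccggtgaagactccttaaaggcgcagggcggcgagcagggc
Hspb1: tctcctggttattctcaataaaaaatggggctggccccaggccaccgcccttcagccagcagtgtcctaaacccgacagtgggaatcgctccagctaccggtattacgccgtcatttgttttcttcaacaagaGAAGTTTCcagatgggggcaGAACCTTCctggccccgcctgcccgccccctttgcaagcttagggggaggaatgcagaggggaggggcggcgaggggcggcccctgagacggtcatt
Bag3 and Dnajb1, which also differed, held neither form in the 250 bases, which says only that those letters are not in this window.

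Other chaperones were lowered by the diets to a like extent. An effect was called alike where each diet was called in the same direction and the 95% interval of the difference lay within -0.585 and 0.585. Of the 45141 probe sets, 97, of 67 genes, met this, 42 up-regulated and 55 down-regulated. Chordc1, a cofactor of HSP90, stood at 8.93–9.33 in the SDS and 7.98–8.26 in the fasted mice, and at 8.88–8.95 in the SDS and 7.75–8.01 in the restricted mice. Its effects of -0.97 ± 0.09 and -1.01 ± 0.10 differed by 0.04, with an interval of -0.23 to 0.32. Ahsa2, an activator of HSP90, had effects of -1.01 ± 0.11 and -1.24 ± 0.12, and Serpinh1, the collagen chaperone HSP47, of -1.11 ± 0.11 and -1.04 ± 0.12. The J-protein Dnaja1 was alike too, at -0.96 ± 0.10 and -0.80 ± 0.11.

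Genes of folding in the endoplasmic reticulum showed no called difference. Of 21 measured genes, fasting down-regulated 6 and restriction 7, and the median difference was -0.01. The rule for like effects was met by 4 of them (Hspa5, Pdia6, Dnajb11 and Creld2), beside 45 of all 17097 genes. By limma, 0 differences of this list were called and 1 had an unadjusted p under 0.05, and the lowest FDR was 0.352. Among all 45141 probe sets, 6369 had an unadjusted p under 0.05 for the difference (limma). Hspa5, the chaperone BiP, lay at 11.47–11.81 in the SDS and 10.99–11.13 in the fasted mice, and at 10.51–10.77 in the SDS and 9.62–9.91 in the restricted mice. Its effects were -0.60 ± 0.08 and -0.80 ± 0.09.

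Like effects were found outside the chaperones as well. Lpl, the lipoprotein lipase, fell by 1.05 ± 0.14 and 1.07 ± 0.15, and the mitochondrial acyl-CoA synthetase Acsm3 by 0.87 ± 0.12 and 0.97 ± 0.13. Hpd, of tyrosine breakdown, rose by 1.04 ± 0.17 and 1.07 ± 0.19, with an interval of the difference from -0.56 to 0.50. The Polycomb protein Cbx7 rose by 0.96 ± 0.12 and 0.96 ± 0.13, and Plekha7, of the adherens junction, by 0.96 ± 0.10 and 0.93 ± 0.12. Tmem169 fell by 0.90 ± 0.11 and 1.10 ± 0.12.

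**Figure D5:**
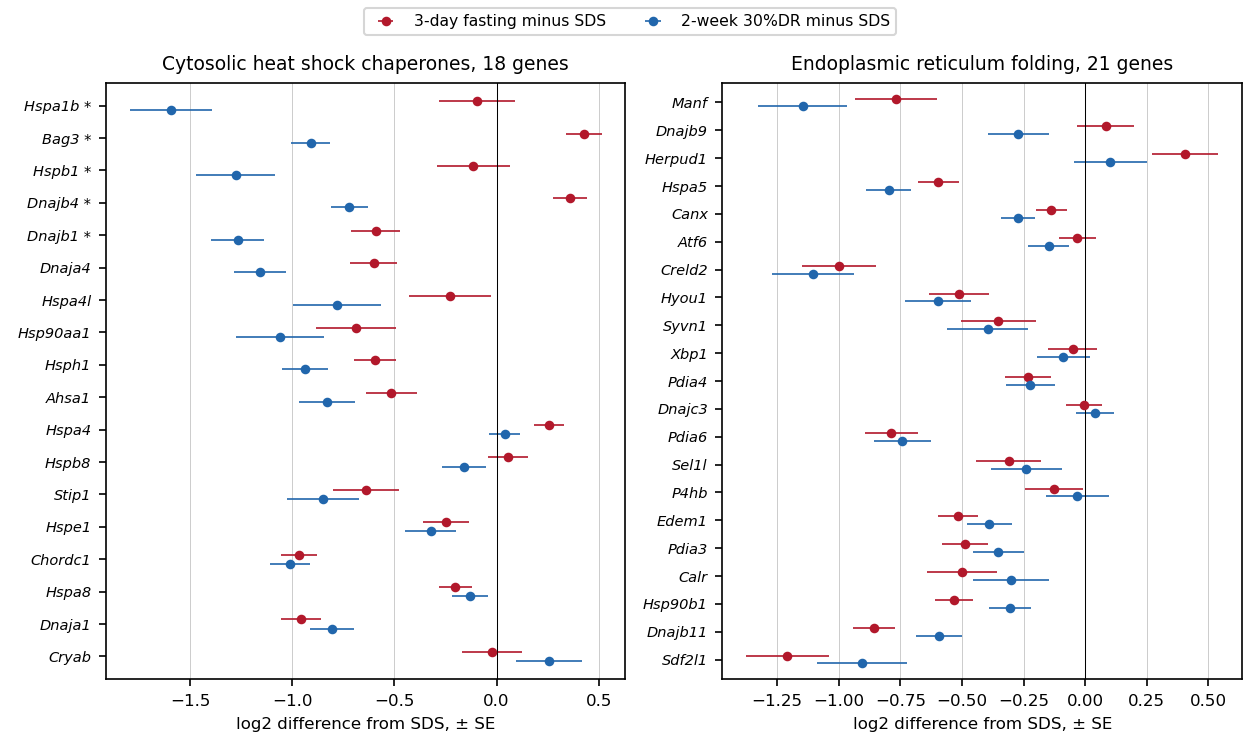
Effect of fasting (red) and of restriction (blue) on 18 cytosolic chaperones and 21 genes of folding in the endoplasmic reticulum, as log2 difference from the SDS controls of the cohort with its SE, ordered by the difference; an asterisk marks the 5 genes whose effects differed. The effects part at the top of the left panel, for Hspa1b and Bag3, and lie side by side for Chordc1 and in most of the right panel.

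The amino acid response lay mainly on the positive side of the difference. This response runs through the kinase GCN2 and the factor ATF4 to genes of amino acid supply. Of 18 measured genes, 7 had a difference above 0 and 0 below, with a median of 0.67. Fasting up-regulated 9, and restriction down-regulated 1 (Ddit3). Asns, the asparagine synthetase, went from 5.56–6.16 in the SDS to 6.82–7.24 in the fasted mice, and lay at 4.77–5.57 and 3.85–5.30 in the SDS and restricted mice (difference 1.71 ± 0.34, FDR = 0.00619). Atf5, a factor downstream of ATF4, differed by 1.35 ± 0.20, Eif4ebp1, the translation repressor, by 1.26 ± 0.13, Chac1, which degrades glutathione, by 1.08 ± 0.26, and Atf4 itself by 0.67 ± 0.15. The transporters Slc7a11 and Slc7a5 were near the bottom of the scale and showed no call in any contrast. Gadd45a, a growth arrest gene on the list of FOXO targets, had effects of 0.91 ± 0.21 and -0.69 ± 0.23, and was the single gene of 19 on that list with a called difference (1.60 ± 0.31).

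The carbonyl reductase Cbr3 and the aldehyde dehydrogenase Aldh1a1 differed strongly between the diets. The list of NRF2 targets and carbonyl reduction had 20 measured genes, 9 with a difference above 0, 0 below and a median of 0.62. Fasting up-regulated 10, and restriction up-regulated 5 and down-regulated 1. Cbr3 lay at 5.02–5.59 in the SDS mice, at 8.62, 8.88, 8.91 and 8.92 in the fasted mice, and at 3.68–4.18 and 3.97–4.33 in the SDS and restricted mice. Its fasting effect of 3.56 ± 0.13 faced a restriction effect of 0.18 ± 0.14 (difference 3.38 ± 0.19, FDR = 1.32e-08). The highest nonspecific control probe set stood at 4.01–4.72 on the arrays of the restriction groups. The restriction effect of Cbr3 was thus read near the bottom of the scale. Its neighbour Cbr1 differed by 2.21 ± 0.15. Aldh1a1, the retinaldehyde dehydrogenase, rose with each diet, from 6.50–6.99 to 9.99–10.14 with fasting and from 5.96–6.22 to 6.52–6.93 with restriction, and the effects of 3.31 ± 0.10 and 0.62 ± 0.11 differed by 2.69 ± 0.15 (FDR = 1.32e-08). Aldh1a7, close to it in sequence, differed by 1.93 ± 0.18. Nqo1, the quinone reductase, rose by 1.69 ± 0.11 and 0.69 ± 0.12. Hmox1, heme oxygenase, had effects of 0.43 ± 0.14 and -0.71 ± 0.15 (difference 1.14 ± 0.20), and the epoxide hydrolase Ephx1 rose alike, by 0.70 ± 0.12 and 0.62 ± 0.13.

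Genes of nitrogen handling moved in both directions after fasting. Of 32 measured genes of ammonia production and amino acid catabolism, 5 had a difference above 0 and 2 below, with a median of 0.06, and 3 lay above without SDS mouse TS58. Slc38a3, a glutamine carrier of the basolateral membrane of the proximal tubule, went from 5.77–6.29 in the SDS to 8.20–8.59 in the fasted mice, and lay at 6.10–6.84 and 6.47–7.62 in the SDS and restricted mice. The difference was 1.86 ± 0.29 (FDR = 0.00109), and 0.15 in a second probe set. Glud1, the glutamate dehydrogenase, differed by 0.98 ± 0.13, Gpt2 by 0.73 ± 0.18, Gldc of glycine cleavage by 1.39 ± 0.33 and Arg2, the mitochondrial arginase, by 2.39 ± 0.34. Aadat, of lysine and kynurenine breakdown, fell by 1.31 ± 0.14 with fasting and differed by -1.16 ± 0.20, and the D-aspartate oxidase Ddo differed by -0.95 ± 0.18.

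Next to Clec2h at the low end of the difference stood Slc22a7 and Hsd3b2. Slc22a7, the organic anion transporter OAT2, stood at 10.57–10.97 in the SDS and 6.74, 6.78, 7.02 and 7.47 in the fasted mice, and at 10.35–10.94 in the SDS and 8.07–10.31 in the restricted mice. Every restricted mouse also lay below its controls, with mouse TS73 lowest, and the restriction effect of -1.12 ± 0.35 was not called. The difference was -2.59 ± 0.48 (FDR = 0.00419). Hsd3b2, a steroid dehydrogenase, differed by -2.51 ± 0.24, with 7.08–7.71 in the fasted against 9.92–10.70 in the SDS mice. The 7 adrenal markers, beside which this steroid gene may be read, averaged 3.21–3.63 on every array, in the lowest part of the scale. Kif20b, a mitotic kinesin, Slc9a8, a sodium-hydrogen exchanger, the branched-chain aminotransferase Bcat1, the thioesterase Acot11 and Mfsd2a, a carrier of lysophospholipids, followed at -2.41 to -2.26. Other probe sets of Kif20b, Slc9a8, Bcat1 and Acot11 gave weaker differences, of -0.21, -0.84, -0.26 and -0.11.

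Transporters as a list were split, with 3 of 23 above 0 and 3 below. Abcc4 (0.97 ± 0.21) and Abcb1b (0.86 ± 0.17), efflux pumps, rose with each diet and more with fasting. Of 16 genes of phosphate, calcium and vitamin D handling, 4 lay below 0 and 0 above, and 2 below without SDS mouse TS58. Slc34a3, a sodium-phosphate cotransporter, fell by 1.78 ± 0.19 with fasting and had a restriction effect of -0.10 ± 0.20 (difference -1.68 ± 0.28, FDR = 0.00171). Slc8a1, the sodium-calcium exchanger of the distal tubule, differed by -1.47 ± 0.20, the calcium-binding Calb1 by -0.61 ± 0.13 to -1.10 ± 0.17 in its called probe sets, and Kl, the co-receptor of FGF23, by -0.59 ± 0.14, close to the minimum. The 3 probe sets of Slc8a1 ranged from -1.56 to -0.16, and the second probe set of Kl gave -0.29. Among sodium and water genes, the exchanger Slc9a3 moved oppositely in the diets by less than the minimum, -0.34 ± 0.07 and 0.37 ± 0.08, and differed by -0.71 ± 0.11. The water channel Aqp2 gave -0.76 ± 0.20 (FDR = 0.0475), and Agt, angiotensinogen, 1.20 ± 0.28. The glucose transporter Slc5a2 (SGLT2) differed by -0.94 ± 0.22.

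Secreted proteins of the acute phase were among the genes with a positive difference. Of 19 measured genes of tubular injury and the acute phase, 4 had a difference above 0 and 0 below. The fibrinogen chains Fga (2.31 ± 0.25) and Fgg (2.45 ± 0.42), the leucine-rich glycoprotein Lrg1 (1.29 ± 0.19) and ceruloplasmin, Cp (0.68 ± 0.18), made up this count. Lrg1 lay at 3.18–3.99 in the restriction groups, near the bottom of the scale. The mean of 5 hepatocyte markers was 6.96–8.48 in the SDS and 7.29–8.94 in the fasted mice, and 6.53–6.79 and 6.76–7.47 in the SDS and restricted mice, with 0 markers called in the difference and 1 at an unadjusted p under 0.05 (limma), and its part in these values was not tested. For comparison, 6369 of all 45141 probe sets had an unadjusted p under 0.05 for the difference (limma). Havcr1 (KIM-1), the injury marker of the proximal tubule, fell with each diet, by 0.86 ± 0.15 and 0.70 ± 0.16. Immediate early genes, which respond within minutes to many stimuli, had estimates above 0 in 17 of 17, with a median of 0.77, and 4 were called (Myc, Jun, Fosl2 and Atf3). A second probe set of Fosl2 gave 0.09. Egr1 (1.96 ± 0.76) and Fos (1.52 ± 0.78) had large errors, with Fos at 4.22–7.47 among the fasted mice. With the control type I mice joined to the SDS mice, 2 genes of this list were called in place of 4: Myc (1.37) and Jun (1.12) were called, and Fosl2 (0.58) and Atf3 (0.46) were not.

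Lists of basic cell machinery held 0 calls in the probe set used for each gene. Of 36 genes of oxidative phosphorylation, 41 cytosolic ribosomal proteins and 34 proteasome subunits, 0 had a called difference in the probe set used, with medians of -0.02, 0.10 and 0.07. At an unadjusted p under 0.05 (limma) the counts were 2, 3 and 3. Over the whole array, 6369 of the 45141 probe sets passed that threshold, a larger share than in any of these lists. In other probe sets a difference was called for the ribosomal Rpl22 (0.73) and the proteasomal Psmd11 (0.64). The lowest difference was -0.06 among the 2 probe sets of Rpl22 and 0.04 among the 5 of Psmd11. Single calls were made in the growth factor and mTOR axis (Igfbp4, of 17) and in autophagy (Bnip3, of 18), and the first of these was lost in 14 of the 17 fits without 1 array.

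Other lists held a few calls, most of them in both directions. Cytochrome P450 and conjugation gave 2 above 0 and 3 below of 21 genes (23.8%), sodium, water and renin genes 1 and 3 of 19 (21.1%), fatty acid synthesis 1 and 2 of 15 (20.0%), gluconeogenesis and glucose transport 2 and 1 of 19 (15.8%), cell cycle genes 2 and 2 of 31 (12.9%), and extracellular matrix 0 and 2 of 22 (9.1%; Col3a1 and Col5a2), against 3.37% of all genes. These small counts depended on single arrays. With 1 array left out, the counts above and below 0 ran over 2 and 2 to 3 for cytochrome P450, 0 to 2 and 1 to 3 for sodium and water, 1 to 2 and 0 to 2 for fatty acid synthesis, 0 to 3 and 0 to 1 for gluconeogenesis, 1 to 3 and 0 to 2 for the cell cycle, and 0 to 1 and 0 to 2 for the matrix. The SDS mice of the restriction groups, TS55, TS56 and TS58, were among those whose omission took a count to 0, for gluconeogenesis below 0, fatty acid synthesis below 0 and the matrix below 0 in turn. The matrix gene Lox was not called in its brightest probe set. Another of its 3 probe sets was called above 0, at 1.02 ± 0.18, and the lowest gave 0.05. That call was kept with each of the 17 arrays left out.

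The samples carried the markers of kidney, with means per array of 10.51–10.99 for 8 proximal tubule markers and of 10.35–11.05 for 6 of the thick ascending limb. The difference was called for 1 marker each of the proximal tubule (Slc5a2), the thick ascending limb (Ptger3), the distal convoluted tubule (Calb1) and the principal cell (Aqp2), all below 0, of which those of Slc5a2, Calb1 (in its brightest probe set) and Aqp2 were each lost without some single arrays, and for 0 of the intercalated cell, podocyte, endothelium, fibroblast and smooth muscle, leukocyte and adrenal markers, of which 1, 1, 1, 1, 6 and 0 had an unadjusted p under 0.05 (limma). That unadjusted threshold was passed by 6369 of all 45141 probe sets, a smaller share than the 6 of 14 leukocyte markers. Of 14 leukocyte markers, 7 fell with fasting (median -0.59) and 0 with restriction (median -0.12), and the median difference was -0.38. Of 4 erythroid markers, the globin chain Hba-a1 was called, and its 3 probe sets differed by -2.04 to -1.49. In the restriction groups its SDS mice spread over 6.37–8.45 and overlapped the restricted mice, at 8.13–9.13. The call of Hba-a1 was lost with a trended and robust prior in limma. It was also lost with the control type I mice joined to the SDS mice (-1.43, FDR = 0.104). The difference between the 3' and 5' probe sets of Gapdh, a sign of RNA integrity, was 0.60–1.23 on the log2 scale in the fasting cohort, 0.93–1.73 in the SDS mice of the restriction groups and 1.04–2.22 in the restricted mice. With it as a covariate, 1 of the 92 named genes with a called difference, Kl, was not called.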

How the data were processed

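Each mouse contributed the kidney RNA of 1 Affymetrix array (HT MG-430 PM). The deposited values are log2 intensities that the authors made with RMA (version not given in the sources used here), run on the fasting cohort apart from the other arrays, after removal of outlier arrays. They were used as deposited. Probe sets were named through the platform annotation: 28898 of 45141 have 1 gene symbol (17097 genes), 551 have several and 15692 have none here.

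All contrasts came from 1 limma fit (version 3.58.1, R 4.3.3) of 17 arrays in 4 groups, with empirical Bayes moderation and Benjamini-Hochberg adjustment over all probe sets. A probe set was called at an FDR under 0.05 and an absolute log2 difference of at least 0.585. The contrast, the members of the 24 gene lists and 13 marker lists, taken from textbook knowledge, and the tests were chosen with earlier results of these data known. A list uses the brightest probe set of each gene. Named genes are the 15 highest and the 15 lowest called differences with arrays that do not overlap, up to 4 called genes per list, the genes with opposite directions, and the 10 strongest like effects, each with its called probe set of lowest p, with all members of the oxidation, cholesterol, clock and heat shock lists also open to naming. Genes outside this rule were named after their values were seen. Genes of near-identical sequence (Hspa1a and Hspa1b, Acot1 and Acot2, Aldh1a1 and Aldh1a7, the Cyp4a family) may share signal. Promoters are from RefSeq (GRCm38.p6). The number of arrays limits the precision, with 3 SDS mice in the smallest group. The fit was tested on simulated data, and 29 alternatives were run: 12 other settings and each of the 17 arrays left out.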

Additional observations from a re-analysis of the deposited data

Results flagged for a closer look

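Over 50 genes described mouse by mouse and 2 array measures, 156 groups of 4 or 5 mice were checked for a mouse far from the rest, with a gap to its nearest neighbour above the 95% critical value of Dixon's ratio, which chance alone passes in about 1 of 20 groups. There were 7 such values. SDS mouse K346 of the fasting cohort held 4 of them: it was low for Cpt1a (10.50, against 10.74 to 10.80 in the others) and high for Hspa1b (9.09, against 8.49 to 8.60), Chordc1 (9.33, against 8.93 to 9.04) and Glud1 (11.40, against 11.27 to 11.31). SDS mouse K350 was low for Nfil3 (4.92, against 5.57 to 5.75) and for Slc16a6 (5.53, against 6.27 to 6.43). Fasted mouse K343 was low for Cbr3 (8.62, against 8.88 to 8.92). Leaving out K346 ended the call of 2 of the 92 named genes with a called difference, Igfbp4 and Col5a2, and leaving out K350 ended 4, none of which is among these 7.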

How the results depend on the processing

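None of the 92 named genes with a called difference changed direction under the 29 alternatives. Since settings test different numbers of probe sets, calls are given as shares of those tested. The share with a called difference, 2.5%, lay between 1.85% (837 probe sets, adipocyte marker mean as a covariate) and 3.68% (629 genes, 1 probe set per gene) under the 12 settings that keep all arrays, except 5.3% (1134) among the 21382 probe sets above the median signal in both cohorts. With 1 array left out it was 1.82% (823, without SDS mouse TS56) to 2.79% (1258, without restricted mouse TS73). The fasting share, 5.26%, was 15% (6776) without the fold change minimum, 10.1% (2159) above the median signal and 6.41% (1096) with 1 probe set per gene, and 5% (2257) to 5.65% (2549) with 1 array left out. The restriction share, 1.41%, was 0.771% with each cohort fitted alone, 3.04% (650) above the median signal, 3.55% (1602) without the fold change minimum and 1.71% (293) with 1 probe set per gene. It was 0.791% (357) under the adipocyte covariate, 2.26% (1020) with the control type I mice joined to the SDS mice, and 0.791% (357) to 1.76% (795) with 1 array left out. Opposite directions, 17, were 52 without the fold change minimum and 7 to 24 with 1 array left out. Like effects, 97, were 519 without the fold change minimum, 45 with 1 probe set per gene, 45 under the adipocyte covariate, 146 after joining the type I mice, and 66 to 109 with 1 array left out. The correlation of the effects, 0.402, was 0.337 under the adipocyte covariate, 0.491 after joining the type I mice, and 0.364 to 0.419 with 1 array left out. Beyond fewer features or a lower threshold, the cause was not tested. Of the 92 named genes with a called difference, 16 lost the call under the adipocyte covariate, among them Hspb1, Gldc, Atf3, Agt, Aqp2 and Kl, 13 after joining the type I mice, and 10 with all 36 arrays in 1 fit, among them Ucp1, Angptl4, Hspa1b, Hspb1 and Aqp2. Leaving out 1 array ended 0 to 15 of them, the most for SDS mouse TS58. No paired analysis was possible because the labels give no numbers that tie mice across groups.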
